A study of Mus musculus with 9 samples.

Results

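The CD28 family and the inhibitory checkpoint receptors are the surface proteins through which a T cell adjusts its response to antigen. They were followed here as 9 genes, Cd28, Icos, Ctla4, Pdcd1, Btla, Lag3, Havcr2, Tigit and Cd200, taken by gene symbol in the annotation of the array. Probe sets naming 8 of the 9 were found among the 18193 genes with a named probe set, and Tigit was not analysed here. Cd28 had 2 probe sets, Icos 3 and every other member 1, which makes 11 of the 45037 probe sets tested. The main probe set of a gene was the one with the highest mean over the 9 arrays.

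The series measured mouse CD4 T cells on C57BL/6 background with Affymetrix Mouse Genome 430 2.0 arrays, 3 arrays in each of 3 groups. The groups pltTGFβ-iTreg and purTGFβ-iTreg were induced regulatory T cells, converted from sorted spleen CD4 cells that lacked the EGFP reporter of Foxp3. Conversion took 72 hours on plates coated with antibody to CD3 (2.5 µg/ml), in medium that held IL2 at 100 U/ml and antibody to CD28 at 1 µg/ml. For pltTGFβ-iTreg the cytokine TGFβ came from freeze-thaw lysates of platelets from wild type mice, and for purTGFβ-iTreg it was purified TGFβ1 at 5 ng/ml. The third group, Tconv, holds conventional T cells. Every sample carries the same remark on treatment, by which TGFβ1 (5 ng/ml, 72 hours) was given to Tconv cells too, and what set their culture apart from purTGFβ-iTreg is therefore unclear. The labels do not say whether iTreg cells were sorted for the reporter after culture, so a group may be a mixture. The design text calls the arrays biological replicates, and nothing says whether each came from separate mice.

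CD28 delivers the second signal that, with the antigen receptor, lets a resting T cell respond, and ICOS is its inducible relative. CTLA-4 competes with CD28 for the ligands CD80 and CD86 and is held at high level by regulatory T cells. PD-1, encoded by Pdcd1, and BTLA carry inhibitory motifs in their tails and dampen antigen receptor signalling. LAG-3 binds MHC class II, TIM-3 (Havcr2) and TIGIT are receptors of activated and exhausted T cells, and CD200 is a ligand that restrains cells bearing the CD200 receptor. Below, Cd200 is counted among the receptor genes although its product is a ligand. In these cultures CD28 itself was bound by the stimulating antibody.

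Promoter windows from the RefSeq table (300 bases, 250 before the start and 50 after it) are printed for 3 members. Ctla4 and Pdcd1 were higher in both iTreg groups than in Tconv, and Cd200 was lower in purTGFβ-iTreg. Each is written 5′ to 3′ on the strand of the gene, and capitals mark matches to 5 motifs on either strand. The motifs were GGAAA for NFAT, CAGACA for SMAD proteins, TGANTCA for AP-1, TGTTTAC for forkhead factors and AAAGGTCA for NR4A factors.
Ctla4 (GRCm38.p6, chr1:60908775-60909074, plus strand): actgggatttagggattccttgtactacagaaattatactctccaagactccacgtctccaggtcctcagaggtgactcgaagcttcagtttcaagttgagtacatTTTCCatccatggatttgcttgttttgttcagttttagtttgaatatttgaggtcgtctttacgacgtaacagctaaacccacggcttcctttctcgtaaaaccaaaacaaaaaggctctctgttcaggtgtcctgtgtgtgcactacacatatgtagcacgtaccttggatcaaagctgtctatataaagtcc
Pdcd1 (GRCm38.p6, chr1:94052504-94052803, minus strand): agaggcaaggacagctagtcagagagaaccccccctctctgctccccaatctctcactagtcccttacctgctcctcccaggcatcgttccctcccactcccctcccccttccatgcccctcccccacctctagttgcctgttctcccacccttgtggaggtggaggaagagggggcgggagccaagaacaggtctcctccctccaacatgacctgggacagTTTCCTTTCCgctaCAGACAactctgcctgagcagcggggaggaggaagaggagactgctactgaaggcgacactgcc
Cd200 (GRCm38.p6, chr16:45409004-45409303, minus strand): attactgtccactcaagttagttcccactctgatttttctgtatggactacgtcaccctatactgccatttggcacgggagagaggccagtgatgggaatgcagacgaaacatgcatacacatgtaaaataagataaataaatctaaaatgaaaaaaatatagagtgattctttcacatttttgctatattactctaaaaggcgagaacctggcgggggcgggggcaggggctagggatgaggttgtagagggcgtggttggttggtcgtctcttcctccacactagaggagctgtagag
The Ctla4 window held 1 match to the NFAT core. The Pdcd1 window held 2 adjoining NFAT cores and 1 SMAD box, and no matches overlapped. The Cd200 window held no match to any of the 5 motifs, which says only that these letters are not in this window. Of 32851 windows of the same length, 61.3% held the NFAT core, 21% the SMAD box, 7.81% the AP-1 site, 3.65% the forkhead site and 1.51% the NR4A site. Windows were found for 6 members, and those of Cd28, Icos and Lag3 were not used here. In the windows not printed, Havcr2 had 1 SMAD box and 1 AP-1 site, Tigit 2 NFAT cores and Btla no match.

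Values below are RMA log2 expression, and a log2 difference of 1 is a doubling. Calls required an absolute log2 fold change above 0.5 together with a limma p below 0.1 after Benjamini-Hochberg adjustment over all probe sets, and a gene past both is said to be called. Replicate arrays correlated at 0.996 to 0.998 within pltTGFβ-iTreg, 0.997 within purTGFβ-iTreg and 0.994 to 0.996 within Tconv. The T cell markers Cd3d, Cd3e, Cd3g, Cd247 and Cd4 were bright on all arrays, and of these Cd4 was called lower in both iTreg groups (-0.62 for pltTGFβ-iTreg and -0.72 for purTGFβ-iTreg against Tconv) and Cd247 in purTGFβ-iTreg (-0.65). Foxp3, the defining factor of regulatory T cells and named here after its values were seen, averaged 3.86 in pltTGFβ-iTreg, 3.77 in purTGFβ-iTreg and 3.79 in Tconv on its only probe set and was called in no comparison, so the name iTreg is that of the labels. Among 19 measured markers of B cells, myeloid cells, CD8 or NK cells and platelets, Cd79b, Cd8b1 and Itga2b were called lower in each iTreg group than in Tconv and none was called higher. Over all genes, 14.7% were called lower in pltTGFβ-iTreg than in Tconv and 14.9% in purTGFβ-iTreg. Summed marker levels are given on the log2 scale in the order pltTGFβ-iTreg, purTGFβ-iTreg and Tconv. They were 5.80 to 6.14, 5.93 to 6.17 and 6.64 to 6.88 for 4 B cell markers. They were 6.66 to 6.76, 6.65 to 6.81 and 6.86 to 7.17 for 6 myeloid markers, and 6.90 to 7.05, 6.93 to 6.98 and 7.42 to 7.57 for 4 CD8 or NK markers. For 5 platelet markers they were 7.12 to 7.26, 7.09 to 7.27 and 7.57 to 7.84, and without detection calls no marker could be called absent. Between the iTreg groups 0 of these 19 markers passed with limma, beside 4.11% of all genes, and 0 with the unmoderated contrast. Of the 19, 2 had an unadjusted p under 0.05.

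Transcripts of the sex chromosomes set Tconv apart from both iTreg groups. Xist, the X-inactivation RNA of female cells, averaged 3.94 in pltTGFβ-iTreg, 3.61 in purTGFβ-iTreg and 10.81 in Tconv, and the Y-linked gene Eif2s3y averaged 8.95, 9.01 and 2.70 in the same groups. For every comparison with Tconv below, sex of the animals and group therefore cannot be told apart. The comparison between the iTreg groups did not carry that difference. In these bulk samples fewer cells of a type and less RNA per cell cannot be told apart either.

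Against Tconv, 7 of the 8 measured receptor genes were called in pltTGFβ-iTreg, 6 higher and 1 lower, and 5 in purTGFβ-iTreg, 3 higher and 2 lower. Ctla4 and Icos were the largest rises of the receptor genes in both iTreg groups, and Lag3 was the largest fall in both. Over all genes, 28.5% were called in pltTGFβ-iTreg (13.9% higher and 14.7% lower) and 29.3% in purTGFβ-iTreg (14.5% higher and 14.9% lower). The median log2 fold change of the 8 receptor genes was 0.80 in pltTGFβ-iTreg and 0.25 in purTGFβ-iTreg, beside -0.16 and -0.17 over all genes. Both comparisons use the same Tconv arrays. Of the 8 receptor genes, 5 were called between the iTreg groups, all 5 higher in pltTGFβ-iTreg. There 4.11% of all genes were called, 1.54% higher and 2.57% lower, and the median difference was 0.67 over the 8 receptor genes and 0.01 over all genes. With stricter cutoffs (log2 change above 1, adjusted p below 0.05) Icos, Ctla4, Btla and Lag3 were called in pltTGFβ-iTreg against Tconv, beside 10.1% of all genes, and Icos, Ctla4, Lag3 and Cd200 in purTGFβ-iTreg, beside 11.2%. Between the iTreg groups Cd200 passed them, beside 0.929% of all genes.

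**Figure D1:**
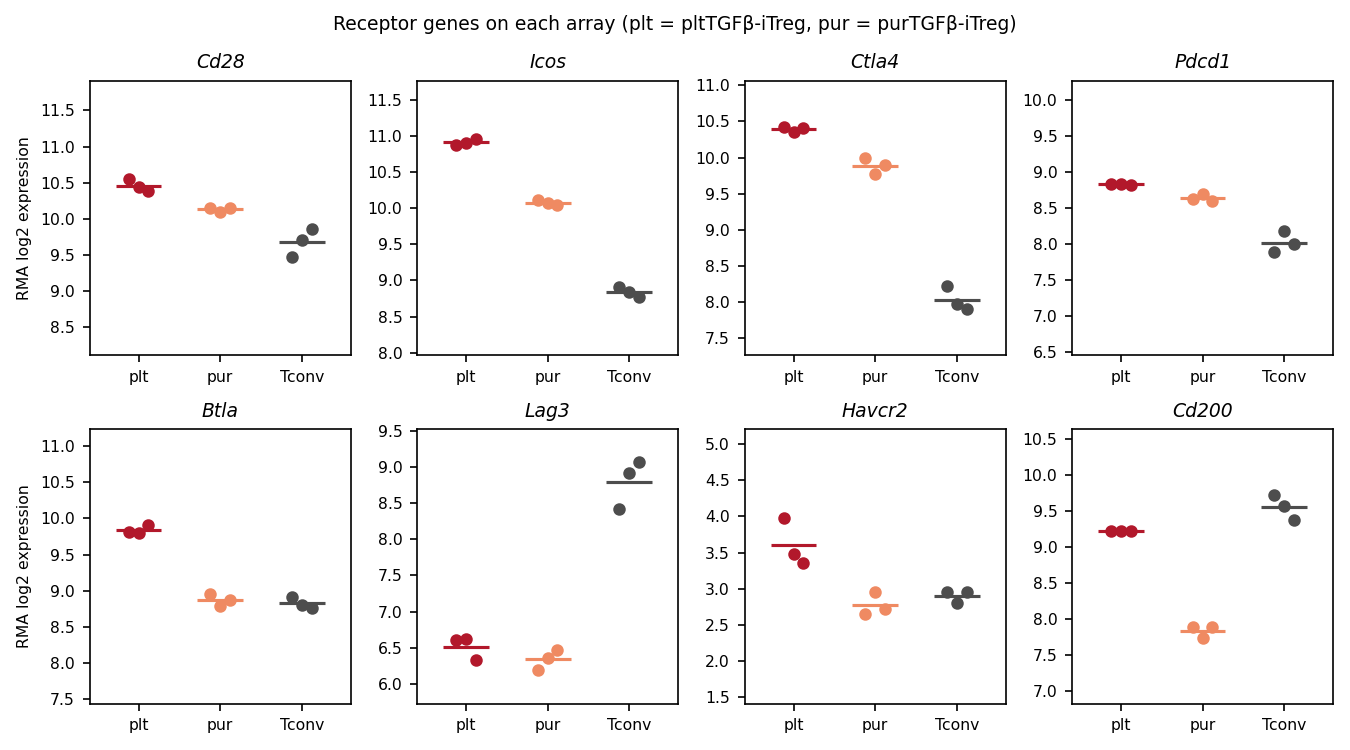
RMA log2 expression of the main probe set of each of 8 receptor genes (y axis, with the same span of log2 units in every panel) on the 3 arrays of pltTGFβ-iTreg (plt), purTGFβ-iTreg (pur) and Tconv, with a line at the group mean. Cd28, Icos, Ctla4 and Pdcd1 step down across the groups without overlap, Lag3 is low on all 6 iTreg arrays, and Cd200 is low on the 3 purTGFβ-iTreg arrays.

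Among the activating receptors, Cd28 read 10.55, 10.44 and 10.38 on the pltTGFβ-iTreg arrays, 10.15, 10.10 and 10.14 on the purTGFβ-iTreg arrays, and 9.47, 9.70 and 9.86 on the Tconv arrays. No groups overlapped, and the order was pltTGFβ-iTreg, then purTGFβ-iTreg, then Tconv. The rise over Tconv was 1.72-fold in pltTGFβ-iTreg (log2 0.78 ± 0.10, SE, adjusted p = 6.26e-05). In purTGFβ-iTreg the log2 difference was 0.46 (95% interval 0.23 to 0.68, adjusted p = 0.00313), which did not reach the fold cutoff. The iTreg groups differed by 0.33 (95% interval 0.10 to 0.55, adjusted p = 0.106), which was not called. The second Cd28 probe set read 9.51, 9.52 and 9.62 in pltTGFβ-iTreg, 9.18, 9.22 and 9.11 in purTGFβ-iTreg, and 8.20, 8.11 and 7.99 in Tconv. It kept the same order with a larger distance to Tconv, and was called in both iTreg groups (log2 1.45 and 1.07). The purTGFβ-iTreg result for Cd28 thus rests on the probe set. It was also called on the mean of both probe sets (0.76), with array medians centred (0.52) and without Tconv replicate 3 (0.55).

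Icos read 10.88, 10.91 and 10.96 in pltTGFβ-iTreg, 10.11, 10.07 and 10.04 in purTGFβ-iTreg, and 8.91, 8.84 and 8.77 in Tconv. The groups were far apart compared with a spread of 0.04 (SD, n = 3) in pltTGFβ-iTreg, 0.04 in purTGFβ-iTreg and 0.07 in Tconv. Icos was 4.22-fold higher in pltTGFβ-iTreg than in Tconv (log2 2.08 ± 0.08, adjusted p = 4.73e-09) and 2.35-fold higher in purTGFβ-iTreg (log2 1.24 ± 0.08, adjusted p = 1.26e-07). Between the iTreg groups it was 1.79-fold higher with platelet lysate (log2 0.84 ± 0.08, adjusted p = 4.69e-05). The other Icos probe sets gave 0.79 and 0.77 for that difference and were called in all 3 comparisons.

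**Figure D2:**
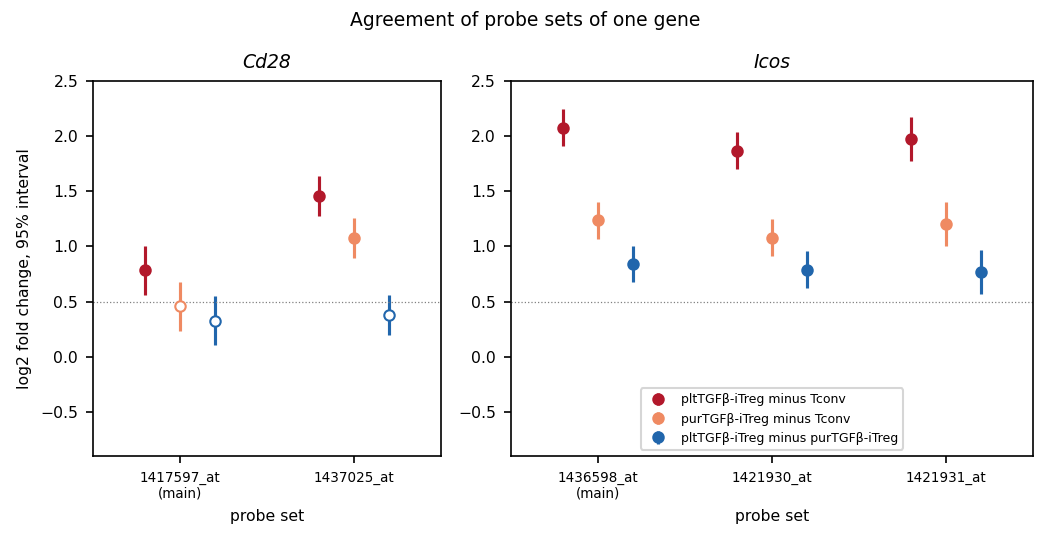
Log2 fold changes with 95% intervals (y axis) for the 2 probe sets of Cd28 and the 3 of Icos (x axis), with filled symbols for called changes, in pltTGFβ-iTreg minus Tconv, purTGFβ-iTreg minus Tconv and pltTGFβ-iTreg minus purTGFβ-iTreg. The Icos probe sets lie within 0.21 of each other in each comparison, while the second Cd28 probe set lies 0.67 above the main one in pltTGFβ-iTreg minus Tconv.

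Of the inhibitory members of the CD28 family, Ctla4 read 10.42, 10.35 and 10.41 in pltTGFβ-iTreg, 10.00, 9.77 and 9.89 in purTGFβ-iTreg, and 8.23, 7.97 and 7.90 in Tconv. No array of one group reached the values of another. Ctla4 was 5.15-fold higher in pltTGFβ-iTreg than in Tconv (log2 2.36 ± 0.10, adjusted p = 1.15e-08) and 3.62-fold higher in purTGFβ-iTreg (log2 1.86 ± 0.10, adjusted p = 4.46e-08). The iTreg groups differed by 0.51 ± 0.10 (adjusted p = 0.0102), just past the fold cutoff. That call was lost without purTGFβ-iTreg replicate 2 (0.45), pltTGFβ-iTreg replicate 1 (0.49) or pltTGFβ-iTreg replicate 3 (0.50), each of which left the adjusted p under 0.1.

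Pdcd1 read 8.84, 8.83 and 8.82 in pltTGFβ-iTreg, 8.63, 8.70 and 8.60 in purTGFβ-iTreg, and 7.89, 8.18 and 8.00 in Tconv. It rose 1.75-fold in pltTGFβ-iTreg (log2 0.81 ± 0.09, adjusted p = 1.39e-05) and 1.54-fold in purTGFβ-iTreg (log2 0.62 ± 0.09, adjusted p = 1.15e-04). The purTGFβ-iTreg value dropped below the fold cutoff after quantile normalization (0.43). Between the iTreg groups the arrays did not overlap, but the difference of 0.19 (95% interval -0.0018 to 0.38, adjusted p = 0.335) was not called.

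Btla, the receptor for the TNF receptor family protein HVEM, showed another pattern. It read 9.82, 9.80 and 9.92 in pltTGFβ-iTreg, 8.95, 8.79 and 8.88 in purTGFβ-iTreg, and 8.91, 8.80 and 8.76 in Tconv. All pltTGFβ-iTreg arrays stood above the rest, and the other 2 groups overlapped. Btla was 2.03-fold higher in pltTGFβ-iTreg than in Tconv (log2 1.02 ± 0.08, adjusted p = 1.29e-06) and 1.96-fold higher than in purTGFβ-iTreg (log2 0.97 ± 0.08, adjusted p = 3.01e-05). For purTGFβ-iTreg against Tconv the difference was 0.05 (95% interval -0.13 to 0.23), and its sign turned after quantile normalization (-0.10).

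The 4 members Cd28, Icos, Ctla4 and Pdcd1 held the order pltTGFβ-iTreg over purTGFβ-iTreg over Tconv with no overlap between any groups, an order found in 3.42% of all genes. Icos and Ctla4 were also called at both steps, as were 0.17% of all genes. The genes did not move by equal amounts. Within each array, Ctla4 minus Cd28, set to 0 at the Tconv mean, averaged 1.58 ± 0.09 (SD, n = 3) in pltTGFβ-iTreg and 1.40 ± 0.08 in purTGFβ-iTreg, with a Tconv SD of 0.36. Icos minus Cd28 averaged 1.29 ± 0.13 in pltTGFβ-iTreg and 0.78 ± 0.04 in purTGFβ-iTreg, with a Tconv SD of 0.27. Both pairs used the main Cd28 probe set, with log2 differences from Tconv of 0.78 in pltTGFβ-iTreg and 0.46 in purTGFβ-iTreg. The second Cd28 probe set rose more (1.45 in pltTGFβ-iTreg and 1.07 in purTGFβ-iTreg), so with it both pairs would lie closer together. Icos minus Ctla4 averaged -0.29 ± 0.06 and -0.62 ± 0.09 in the same order. Arrays of no groups overlapped in any of these pairs, and each exact permutation test (two-sided) gave p = 0.1, also after Benjamini-Hochberg adjustment, which is the smallest that 3 arrays against 3 allow. The same p was found for all comparisons of the other 2 of 5 pairs computed. Btla minus Ctla4 averaged -1.34 ± 0.05 in pltTGFβ-iTreg and -1.81 ± 0.03 in purTGFβ-iTreg, with a Tconv SD of 0.09, and Cd200 minus Lag3 averaged 1.96 ± 0.17 and 0.75 ± 0.18, with a Tconv SD of 0.51.

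**Figure D3:**
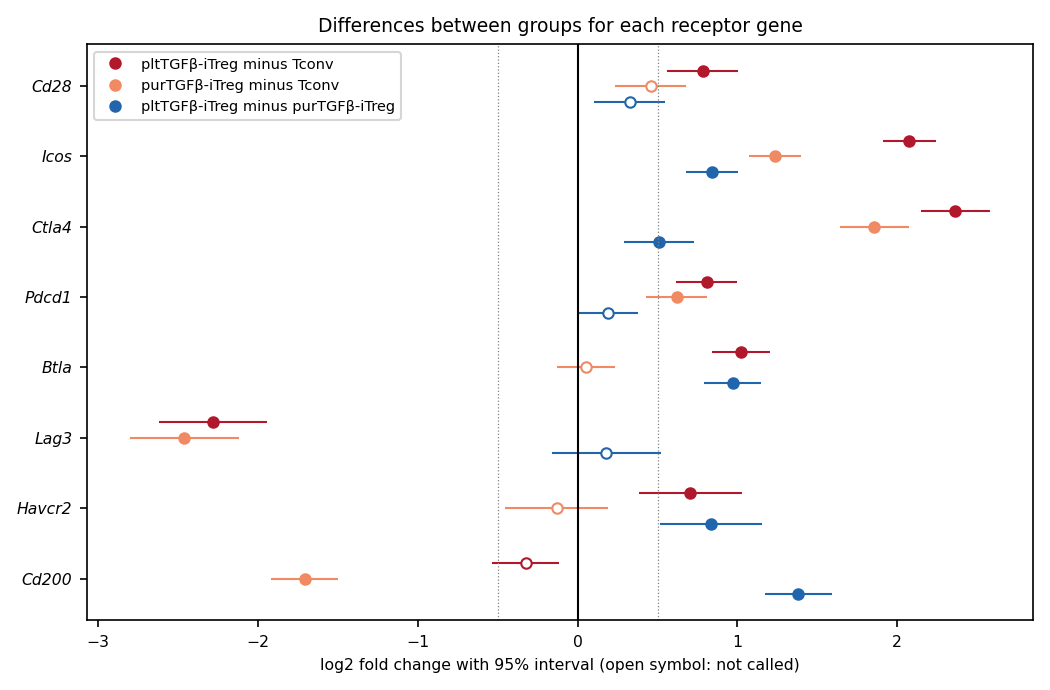
Log2 fold change (x axis) with its 95% interval for each receptor gene (y axis) in pltTGFβ-iTreg minus Tconv, purTGFβ-iTreg minus Tconv and pltTGFβ-iTreg minus purTGFβ-iTreg, with filled symbols for called changes and dotted lines at the fold cutoff of 0.5. Lag3 lies near -2.28 and -2.46 against Tconv, while the differences between the iTreg groups are all above 0 and reach 1.38 for Cd200.

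Outside the CD28 family, Lag3 ran opposite to Ctla4 and Icos. It read 6.61, 6.62 and 6.32 in pltTGFβ-iTreg, 6.19, 6.36 and 6.47 in purTGFβ-iTreg, and 8.42, 8.91 and 9.07 in Tconv. Every iTreg array was below every Tconv array, and the iTreg groups overlapped. Lag3 was 4.87-fold lower in pltTGFβ-iTreg than in Tconv (log2 -2.28 ± 0.16, adjusted p = 3.40e-07) and 5.51-fold lower in purTGFβ-iTreg (log2 -2.46 ± 0.16, adjusted p = 1.60e-07). The iTreg groups differed by 0.18 (95% interval -0.16 to 0.52, adjusted p = 0.693).

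Cd200 was the gene on which the iTreg groups differed most among the 8 measured members. It read 9.22 on all 3 pltTGFβ-iTreg arrays, with no difference in the deposited decimals, 7.89, 7.74 and 7.89 in purTGFβ-iTreg, and 9.72, 9.56 and 9.37 in Tconv. Values tied over the 3 arrays of a group were deposited for 342 probe sets in pltTGFβ-iTreg, 344 in purTGFβ-iTreg and 142 in Tconv, and the SE of Cd200 comes from the spread in the other groups and the moderated variance. All purTGFβ-iTreg arrays were more than 1 log2 unit below every other array. Cd200 was 2.61-fold higher in pltTGFβ-iTreg than in purTGFβ-iTreg (log2 1.38 ± 0.10, adjusted p = 5.17e-06), and purTGFβ-iTreg was 3.27-fold lower than Tconv (log2 -1.71 ± 0.10, adjusted p = 6.32e-08). In pltTGFβ-iTreg the difference from Tconv was -0.33 (95% interval -0.54 to -0.12, adjusted p = 0.0158), short of the fold cutoff although the arrays did not overlap.

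Havcr2, which encodes TIM-3, was dim. It read 3.97, 3.48 and 3.36 in pltTGFβ-iTreg, 2.64, 2.95 and 2.71 in purTGFβ-iTreg, and 2.95, 2.80 and 2.95 in Tconv. The pltTGFβ-iTreg arrays were the highest, with more spread than in the other groups (SD 0.33, 0.16 and 0.09). Havcr2 was called higher in pltTGFβ-iTreg than in purTGFβ-iTreg (log2 0.84 ± 0.15, adjusted p = 0.00533) and than in Tconv (log2 0.70 ± 0.15, adjusted p = 0.00209). Its mean ranked at the 20.2nd percentile of all probe sets, against 78.4 to 95.4 for the other 7 genes. With no detection calls, whether it read above background was not settled. Arrays of 8 of 8 receptor genes did not overlap between pltTGFβ-iTreg and Tconv, beside 59% of all genes. The same held for 6 of 8 between purTGFβ-iTreg and Tconv, beside 62.7% of all genes, and for 7 of 8 between pltTGFβ-iTreg and purTGFβ-iTreg, beside 28.2%.

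Position in the genome joins several of these genes. Cd28, Ctla4 and Icos are consecutive protein-coding genes on chromosome 1, Btla and Cd200 are next to each other on chromosome 16, and Lag3 follows Cd4 on chromosome 6 in the RefSeq table of GRCm38.p6. The 6 nearest protein-coding neighbours of the Cd28, Ctla4 and Icos cluster were Cyp20a1, Abi2, Raph1, Pard3b, Nrp2 and Ino80d. Raph1 (0.69) and Ino80d (1.49) were called higher in pltTGFβ-iTreg than in Tconv, and Ino80d (1.33) in purTGFβ-iTreg. Over all genes, 13.9% were called higher in pltTGFβ-iTreg and 14.5% in purTGFβ-iTreg. Between the iTreg groups 0 of the 6 neighbours were called with limma, beside 4.11% of all genes, and 0 with the unmoderated contrast. Of the 6, 3 had an unadjusted p under 0.05. Over the 28 measured neighbours of all 9 members, 3 were called between the iTreg groups, all higher in pltTGFβ-iTreg, beside 1.54% of all genes. Against Tconv, 8 of the 28 were called higher and 4 lower in each iTreg group, beside 28.5% and 29.3% of all genes called. Pard3b, next to Icos, had log2 differences of -0.16 in pltTGFβ-iTreg and -0.43 in purTGFβ-iTreg against Tconv and was not called. The adjoining genes Btla and Cd200 had differences from Tconv of 1.02 and -0.33 in pltTGFβ-iTreg and of 0.05 and -1.71 in purTGFβ-iTreg. Neither the -0.33 of Cd200 nor the 0.05 of Btla was called, and the sign of the latter was not settled. Between the iTreg groups both genes were called higher in pltTGFβ-iTreg (0.97 and 1.38). Beside Lag3, Cd4 and Gpr162 on one flank and Ptms on the other were called lower in both iTreg groups. Their log2 differences were -0.62, -0.51 and -0.94 in pltTGFβ-iTreg and -0.72, -0.57 and -0.85 in purTGFβ-iTreg, smaller than those of Lag3. Cd4, Gpr162 and Ptms were 3 of 6 measured neighbours of Lag3. Over all genes, 14.7% were called lower in pltTGFβ-iTreg and 14.9% in purTGFβ-iTreg.

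**Figure D4:**
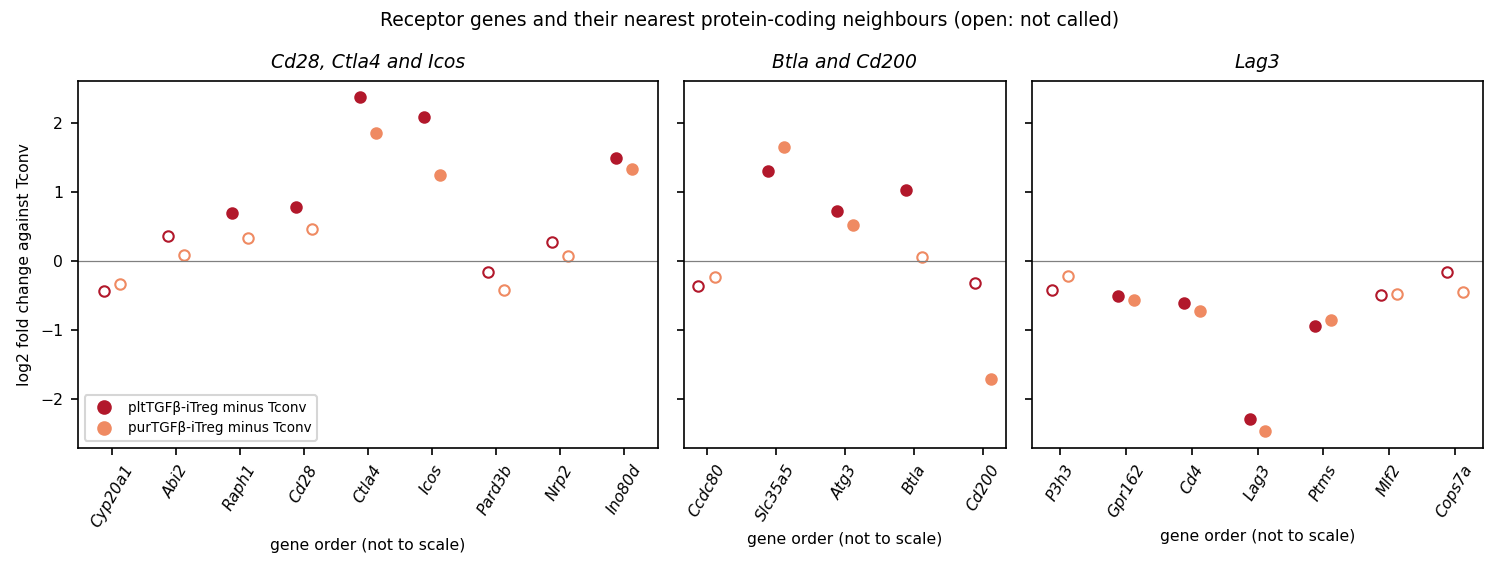
Log2 fold change against Tconv (y axis) of receptor genes and their measured protein-coding neighbours in gene order (x axis, not to scale), with filled symbols for called changes, in pltTGFβ-iTreg and purTGFβ-iTreg. Ctla4 (2.36 and 1.86) and Icos (2.08 and 1.24) stand above Pard3b and Raph1 on their flanks. Ino80d, further out (1.49 and 1.33), lies above Icos in purTGFβ-iTreg. Lag3 (-2.28 and -2.46) lies below Cd4 and Ptms.

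Of 14 measured ligands and binding partners of the receptors, 4 were called between the iTreg groups, 3 higher and 1 lower in pltTGFβ-iTreg, a share of 28.6% beside 4.11% of all genes. Cd80, a ligand shared by CD28 and CTLA-4, averaged 5.71 ± 0.28 in pltTGFβ-iTreg, 4.79 ± 0.07 in purTGFβ-iTreg and 4.37 ± 0.24 in Tconv, a difference of 0.92 between the iTreg groups (adjusted p = 0.00304) and of 1.34 between pltTGFβ-iTreg and Tconv. A dimmer Cd80 probe set gave 1.25 for the iTreg difference, and the remaining ones were not called. Cd274, which encodes the PD-1 ligand PD-L1, averaged 7.67 ± 0.07, 7.06 ± 0.06 and 7.77 ± 0.09 in the same groups. Its purTGFβ-iTreg value was lower than that of pltTGFβ-iTreg (difference 0.61, adjusted p = 0.00109) and of Tconv (-0.71, adjusted p = 2.57e-05). Lgals3, which encodes the LAG-3 binding lectin galectin-3, was highest in pltTGFβ-iTreg (8.80 ± 0.07), then in purTGFβ-iTreg (7.93 ± 0.11), then in Tconv (6.53 ± 0.27), and was called in all comparisons. Lgals9, whose product galectin-9 binds TIM-3, read 8.83, 8.92 and 8.27 in pltTGFβ-iTreg, 9.11, 9.27 and 9.35 in purTGFβ-iTreg, and 9.26, 9.52 and 9.61 in Tconv. It was called lower in pltTGFβ-iTreg than in Tconv (-0.79) and than in purTGFβ-iTreg (-0.57, adjusted p = 0.0691). The call between the iTreg groups was lost without pltTGFβ-iTreg replicate 3, the lowest array, where the difference was -0.36 (adjusted p = 0.171). It was also lost with array weights (-0.50), without purTGFβ-iTreg replicate 2 (adjusted p = 0.181) or replicate 3 (adjusted p = 0.234), and under the unmoderated contrast (adjusted p = 0.246), which left 3 of the 4 calls of this list. Pdcd1lg2, which encodes the other PD-1 ligand, was lower than in Tconv in pltTGFβ-iTreg (-0.52) and in purTGFβ-iTreg (-0.62), and so was Nectin2, a ligand of TIGIT (-0.81 and -0.74). Pvr, another TIGIT ligand, was called lower in purTGFβ-iTreg than in Tconv on its main probe set (-0.51) and on no other. Against Tconv, 2 ligands or partners rose and 3 fell in pltTGFβ-iTreg and 1 rose and 4 fell in purTGFβ-iTreg, a share of 35.7% in each beside 28.5% and 29.3% of all genes, with list medians of -0.13 and -0.24. The pltTGFβ-iTreg call of Pdcd1lg2 was lost without pltTGFβ-iTreg replicate 3 (-0.46), with array medians centred (-0.46) and with array weights (-0.49). The purTGFβ-iTreg call of Pvr was lost without Tconv replicate 1 (-0.47), Tconv replicate 2 (-0.43) or purTGFβ-iTreg replicate 3 (-0.42). It was also lost with array medians centred (-0.45).

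Of 12 other co-receptors of T cells, 5 were called higher and 3 lower in pltTGFβ-iTreg than in Tconv, and 3 higher and 5 lower in purTGFβ-iTreg. That is a share of 66.7% in each, beside 28.5% of all genes in pltTGFβ-iTreg and 29.3% in purTGFβ-iTreg. In pltTGFβ-iTreg 2 were called higher and 1 lower than in purTGFβ-iTreg, 25% beside 4.11% of all genes. Crtam, an adhesion receptor of activated T cells, averaged 7.38 ± 0.02 in pltTGFβ-iTreg, 5.57 ± 0.07 in purTGFβ-iTreg and 8.40 ± 0.10 in Tconv. Cd160, which like BTLA binds HVEM, averaged 6.90 ± 0.06, 5.68 ± 0.03 and 7.03 ± 0.06 in those groups. Both were therefore lowest in purTGFβ-iTreg, as Cd200 was, and the iTreg groups differed by 1.81 (adjusted p = 2.67e-07) and 1.22 (adjusted p = 2.33e-06). A second Cd160 probe set gave 1.47, and the others were not called. Lair1, an inhibitory collagen receptor, ran the other way and averaged 5.34 ± 0.13 in pltTGFβ-iTreg, 6.33 ± 0.09 in purTGFβ-iTreg and 4.16 ± 0.40 in Tconv (iTreg difference -0.99, adjusted p = 0.00373). Cd48, the ligand of CD2 and CD244, rose by 1.61 in pltTGFβ-iTreg and 1.23 in purTGFβ-iTreg, and Cd96, which shares ligands with TIGIT, by 1.01 and 1.17. Vsir, which encodes the inhibitory protein VISTA, rose by 0.75 in pltTGFβ-iTreg, and its log2 difference of 0.38 in purTGFβ-iTreg was not called.

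Signalling genes downstream of the receptors mostly did not pass. Of 14 measured, 2 rose and 2 fell against Tconv in each iTreg group, a share of 28.6% that is close to that of all genes. Pik3r1, the regulatory subunit of the PI3 kinase that binds the CD28 and ICOS tails, averaged 8.26 ± 0.22 in pltTGFβ-iTreg, 9.01 ± 0.04 in purTGFβ-iTreg and 6.05 ± 0.21 in Tconv. It was the only gene of this list called between the iTreg groups (-0.75, adjusted p = 0.00397). Its other probe sets gave -0.54, which was called, and -0.58 and -0.13, which were not. The probe set with -0.13 was not called against Tconv either (0.29 in pltTGFβ-iTreg and 0.42 in purTGFβ-iTreg). Tbk1, a kinase recruited by ICOS, rose by 1.00 in both iTreg groups. Bag6, a partner of TIM-3, fell by 0.88 on the log2 scale in both. Ppp2r1a, a subunit of the phosphatase PP2A that binds the CTLA-4 tail, had log2 differences of -0.72 in pltTGFβ-iTreg and -0.62 in purTGFβ-iTreg. Its other, brighter probe sets fell less. They gave -0.38 to -0.60 in pltTGFβ-iTreg, where only the largest was called, and -0.26 to -0.47 in purTGFβ-iTreg, where none was.

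Genes of receptor trafficking and turnover had 7 rises and 3 falls among 18 in pltTGFβ-iTreg against Tconv, and 7 rises and 2 falls in purTGFβ-iTreg. These are shares of 55.6% and 50%, beside 28.5% and 29.3% of all genes. Trat1, an adaptor that holds CTLA-4 and the antigen receptor at the surface, averaged 6.55 ± 0.06 in pltTGFβ-iTreg, 5.53 ± 0.21 in purTGFβ-iTreg and 9.16 ± 0.27 in Tconv. Cblb, a ubiquitin ligase that restrains CD28 costimulation, averaged 8.37 ± 0.05, 7.43 ± 0.07 and 8.85 ± 0.28 in those groups. These were the 2 genes of the list called between the iTreg groups (1.01 and 0.94), 11.1% of the list beside 4.11% of all genes. Adam10 and Adam17, the proteases that shed LAG-3, rose by 1.29 and 1.26 in pltTGFβ-iTreg and by 1.52 and 1.16 in purTGFβ-iTreg. Rc3h1 and Rc3h2, which encode the Roquin proteins that repress Icos mRNA, rose by 1.15 and 1.91 in pltTGFβ-iTreg and by 0.95 and 1.91 in purTGFβ-iTreg. Fut8, an enzyme of PD-1 glycosylation, rose by 2.21 and 1.78. Lrba, which protects CTLA-4 from degradation, also rose (0.67 and 0.65) but was called in neither after quantile normalization (0.48 and 0.44), and was named after its values were seen.

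Among 16 measured transcription factors that act on these genes or in T cell activation, 4 were higher and 2 lower in pltTGFβ-iTreg than in purTGFβ-iTreg, a share of 37.5% beside 4.11% of all genes. Nr4a2, induced by the antigen receptor, averaged 7.40 ± 0.07 in pltTGFβ-iTreg, 5.78 ± 0.03 in purTGFβ-iTreg and 7.14 ± 0.02 in Tconv. Eomes, a factor of effector T cells, averaged 7.19 ± 0.14, 5.80 ± 0.13 and 7.11 ± 0.15 in those groups. Both shared the low purTGFβ-iTreg values of Cd200, Crtam and Cd160, with iTreg differences of 1.61 (adjusted p = 2.72e-07) and 1.38 (adjusted p = 1.36e-05). Maf was lower in pltTGFβ-iTreg than in purTGFβ-iTreg (8.78 ± 0.04 and 10.14 ± 0.10) and near 3.66 in Tconv, and Bcl6 was lower too (-0.64, adjusted p = 2.86e-04). Batf was lower than in Tconv in both iTreg groups (-1.31 and -1.80), and Tbx21, the Th1 regulator, likewise (-0.80 and -1.15). Nr4a1 had log2 differences of -0.73 and -1.27 against Tconv. Nr4a3 rose by 1.35 and 0.52 on its main probe set, but a dimmer probe set was called lower (-0.51 and -0.65), so its direction was not settled. Its purTGFβ-iTreg call was lost without Tconv replicate 2 (0.48) or 3 (0.44) and after quantile normalization (0.48).

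**Figure D5:**
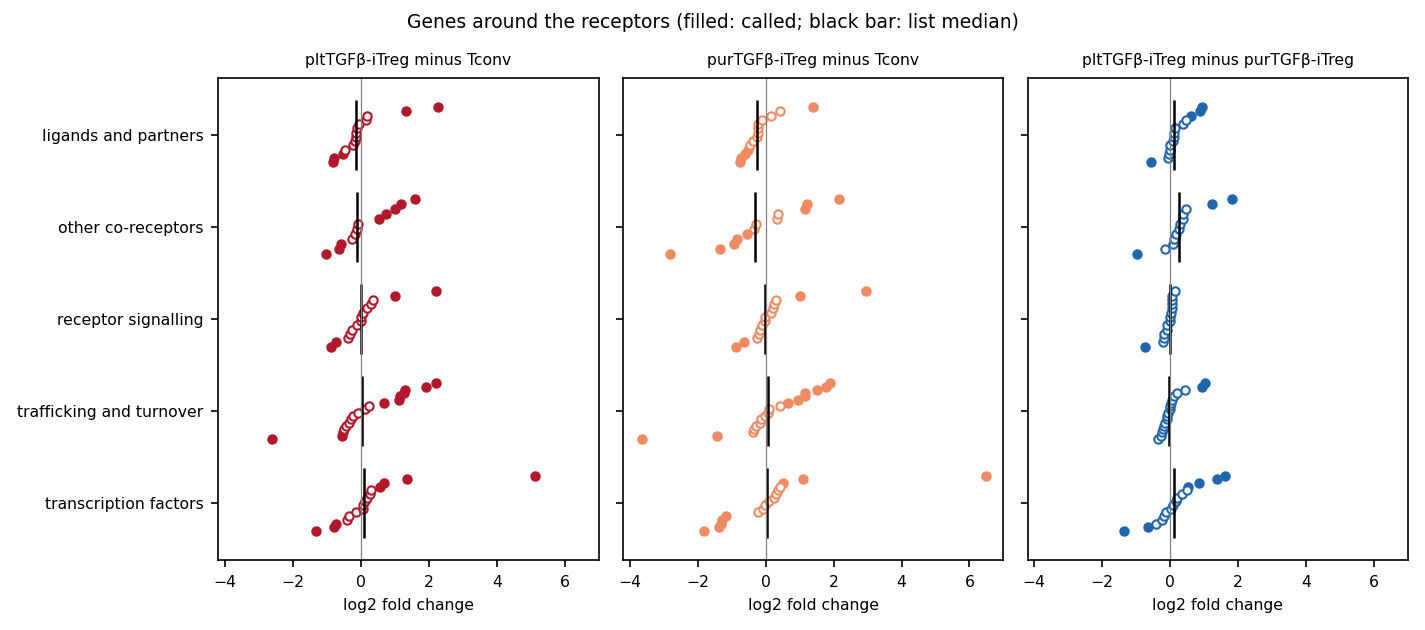
Log2 fold changes (x axis) of 74 genes around the receptors in 5 lists (y axis), 1 symbol per gene, filled where called, with a black bar at the list median, in pltTGFβ-iTreg minus Tconv, purTGFβ-iTreg minus Tconv and pltTGFβ-iTreg minus purTGFβ-iTreg. Medians lie between -0.31 and 0.26 in every list and comparison, with called genes on both sides in most, and between the iTreg groups 16 genes were called.

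Genes with the most similar profile were sought among 16311 other named genes, as the smallest root mean square distance between centred log2 values over the 9 arrays. The arrays fall into groups, so the distances mostly measure likeness of the group means. Closest to Ctla4 were Cert1 (0.12), Zbtb41 (0.13) and Gsdme (0.14), and closest to Icos were Ddias (0.17), Zfp281 (0.17) and Flvcr1 (0.18). Cd28 lay nearest to Nkapd1 (0.04), Slc25a26 (0.08) and Luc7l (0.08), and Pdcd1 to Hsp90b1 (0.05), Mtrex (0.06) and Rbm15 (0.06). For Btla they were Gbp7 (0.12), Lif (0.12) and Gzma (0.16), and for Havcr2 they were Pla1a (0.15), Nppc (0.16) and Gimap5 (0.18). Lag3 was nearest to Gstt1 (0.11), Gstt2 (0.14) and Gata3 (0.16). Grap (0.15), Slamf7 (0.16) and Ifih1 (0.16) were nearest to Cd200, and their means, like those of Cd200, were lowest in purTGFβ-iTreg. Slamf7 averaged 6.21 in pltTGFβ-iTreg, 4.68 in purTGFβ-iTreg and 6.39 in Tconv.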

How the data were processed

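Expression was measured on 9 Affymetrix arrays, 3 per group, and groups were taken from the sample titles. The authors deposited log2 values made by RMA (Robust Multichip Analysis), run in the Affymetrix software Expression Console according to the design text. RMA corrects background, equalises the distributions of probe values across arrays and gives 1 value per probe set. The deposited values still differed in upper quartile between groups. It was 6.86 to 6.91 in pltTGFβ-iTreg, 6.88 to 6.95 in purTGFβ-iTreg and 6.59 to 6.70 in Tconv. RMA compresses values near background, so folds of dim genes are understated. Partek Genomics Suite 6.6 was used by the authors for ANOVA, per the same text, and the cutoffs of 1.4-fold (0.5 on the log2 scale) and a false discovery rate of 10% are theirs.

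Of 45101 probe sets, 64 controls were left out. Symbols came from the platform annotation: 34945 probe sets had 1 symbol, 932 several and 9160 none. A cross-hybridising probe set was the main one only where a gene had no other. One limma model (limma 3.58.1, R 4.3.3) with a mean per group was fitted to all 45037 probe sets and tested two-sided with moderated variances, and it was tested on simulated data. Intervals are at the 95% level, and the number of arrays limits the precision. Within-array differences between genes were tested by exact permutation (scipy 1.17.1).

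The receptor genes, the 5 surrounding lists and the tests were chosen with earlier results of these data known. Text names all receptor genes, up to 4 called genes per list and comparison with the lowest adjusted p, every called gene where 5 or fewer were called, and the 3 nearest profiles per receptor gene. Of 79 listed surrounding genes 74 had a named probe set, and the rest were not analysed here. Promoter windows came from RefSeq (GRCm38.p6). Same-numbered replicates were compared for pairing, and 20 alternative settings were tried.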

Additional observations from a re-analysis of the deposited data

Results flagged for a closer look

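The difference from Tconv was not the same in both iTreg groups for 5 receptor genes, by the limma test of pltTGFβ-iTreg against purTGFβ-iTreg itself. The log2 differences were 1.38 for Cd200, 0.97 for Btla, 0.84 for Icos, 0.84 for Havcr2 and 0.51 for Ctla4, and every pltTGFβ-iTreg array was above every purTGFβ-iTreg array for each. Over all alternative settings the difference lay between 1.33 and 1.43 for Cd200, 0.93 and 1.01 for Btla, 0.80 and 0.86 for Icos, and 0.45 and 0.56 for Ctla4. For Havcr2, which was dim, it lay between 0.65 and 0.96. Platelet markers moved little between these groups (-0.05 to 0.25 over 5 genes), and their part in the results was not tested. With 3 arrays per group no test for single outlying arrays was made.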

How the results depend on the processing

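Between the iTreg groups, raising the cutoffs (log2 change above 1 in size, adjusted p below 0.05) left 1 receptor gene called, Cd200, and 6 of the surrounding genes, against 5 and 16. Against Tconv the same cutoffs left 4 receptor genes (Icos, Ctla4, Btla and Lag3) and 18 surrounding genes in pltTGFβ-iTreg, against 7 and 34, and 21 surrounding genes in purTGFβ-iTreg, against 34. Of all genes, the stricter cutoffs left 0.929% between the iTreg groups, and 10.1% in pltTGFβ-iTreg and 11.2% in purTGFβ-iTreg against Tconv. With no fold cutoff the surrounding genes numbered 52 in pltTGFβ-iTreg and 54 in purTGFβ-iTreg. The share of all genes with no fold cutoff is not given here, so those counts cannot be weighed against it. Quantile normalization turned the uncalled Btla difference between purTGFβ-iTreg and Tconv to -0.10, and the cause was not tested. Leaving out each array gave 4 to 5 receptor genes called between the iTreg groups, 7 in pltTGFβ-iTreg and 5 to 6 in purTGFβ-iTreg against Tconv. Leaving out the dimmest 40% of probe sets removed Havcr2 from the test. Same-numbered arrays of different groups deviated together in 2 of 9 pairs (r above 0.1, range -0.12 to 0.26). Both were pairs of pltTGFβ-iTreg with purTGFβ-iTreg (r of 0.19 and 0.26, with 0.09 for replicate 3). The numbers were not taken as pairs, and pairing between the iTreg groups was not settled. With the replicate block, 5, 7 and 5 receptor genes were called between the iTreg groups, in pltTGFβ-iTreg and in purTGFβ-iTreg against Tconv, and surrounding genes numbered 16, 34 and 34. The block changed no call of a receptor gene. The shares of all genes with the block or with an array left out are not given here. Those counts therefore show only whether calls held, not how they compare with all genes. Of 477 member values under alternatives, 459 kept their direction and side of the cutoffs. Dim genes, with values near background, limit the reading of Havcr2.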
